A study of Macaca mulatta with 22 samples.

Results

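The KLF, GATA, SOX, FOX, HOX and TBX genes are 6 families of DNA-binding transcription factors, and their mRNA levels are described here across the ovulatory interval of the rhesus macaque follicle. Members were all genes to which the array annotation gives a single symbol of one of these families. The rule found 102 genes out of 14132 with a single symbol: 30 FOX, 26 HOX, 15 KLF, 15 SOX, 11 TBX and 5 GATA genes, measured by 195 probe sets. A gene with several probe sets was represented by the one with the highest mean log2 intensity over all arrays.

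KLF and GATA proteins bind DNA through zinc fingers, SOX proteins through an HMG box, FOX proteins through a forkhead domain, HOX proteins through a homeodomain and TBX proteins through a T-box. KLF factors read GC-rich and CACCC elements and include both repressors and activators, and FOXO proteins are held out of the nucleus when the PI3K and AKT pathway is active. In the ovary, GATA4 and GATA6 are known activators of steroidogenic and inhibin genes in granulosa and theca cells, and in mice FOXO1 is a granulosa cell factor that hormone signals switch off. HOX genes keep the positional code of the tissue a cell came from and often act with TALE homeodomain partners.

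Whole dominant follicles of female rhesus monkeys on a controlled ovulation protocol were profiled one per array on 22 arrays. Every animal received the GnRH antagonist Acyline with recombinant human FSH and LH, 30 IU of each per injection, once serum estradiol had reached 100 to 120 pg per ml. The groups were follicles taken without hCG (0 h, 6 arrays), 12 h after 1000 IU of recombinant hCG (4 arrays), 24 h after hCG (4 arrays), 36 h after hCG and still unruptured (4 arrays), and 36 h after hCG and ruptured (4 arrays). Ruptured and unruptured follicles are thus groups sorted by outcome at one time point, and all groups share the antagonist and the gonadotropins. The labels do not number the animals, and the p-values reflect no more than how far these follicles differ among themselves.

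A whole follicle holds several cell types, and a change in a gene's RNA per cell cannot be told apart from a change in the share of the cells that carry it. Summed intensity of 7 of 8 granulosa markers ranged from 6530 to 14650 at 0 h, from 2674 to 12190 at 12 h, from 1623 to 3052 at 24 h, from 1104 to 4624 in unruptured and from 6043 to 9412 in ruptured 36 h follicles. Of 7 measured macrophage and monocyte markers 5 were higher at 12 h than at 0 h, with summed intensities of 1345 to 4348 at 12 h and 760.7 to 1455 at 0 h. Of 5 measured theca markers 3 were called at 12 h against 0 h and 4 in ruptured against 0 h follicles, 3 of these 4 lower, with CYP17A1, the androgen-forming enzyme, at -4.81 (adjusted p = 1.78e-07) and STAR, which feeds cholesterol to steroid synthesis, higher at 0.94 (adjusted p = 0.000107). Of 5 surface epithelium markers 2 were called at 24 h against 12 h and 2 in ruptured against unruptured follicles, 1 higher and 1 lower each time. Of 9 endothelial markers 1 was called lower at 24 h against 12 h, 1 lower at rupture and 1 higher in ruptured against 0 h follicles, and of 4 stroma and smooth muscle markers 1 was called higher at 12 h and in ruptured follicles, both against 0 h. None of 3 red cell markers, 4 oocyte markers or 3 ciliated epithelium markers was called in any comparison at adjusted p under 0.05. The 3' minus 5' log2 signal of control transcripts, an index of RNA degradation, averaged 0.391 ± 0.079 at 12 h (SD, n = 4) and 0.328 ± 0.041 at 0 h (SD, n = 6). The part of these shifts in the results was not tested beyond a fit with the index as a covariate.

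A difference among the 5 groups was called for 23 of the 102 members (22.5%) by limma's F test with Benjamini-Hochberg adjustment, at an adjusted p under 0.05. The same test called 29% of the 14132 single-symbol genes, each read by its brightest probe set as the members were, so the members' share was the lower. The count is split here by level: 39 members had a mean log2 intensity of 5 or more and 63 lay below it, close to or under the array medians of 4.709 to 4.739. Among the 39 brighter members 19 differed (48.7%), against 41.1% of all genes at that level, and among the 63 dim ones 4 did. By family the count was 7 of 15 KLF, 9 of 30 FOX, 4 of 26 HOX, 1 of 5 GATA, 1 of 15 SOX and 1 of 11 TBX genes. Of the brighter members, 12 were KLF, 10 FOX, 7 HOX, 6 SOX, 3 GATA and 1 TBX genes.

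**Figure D1:**
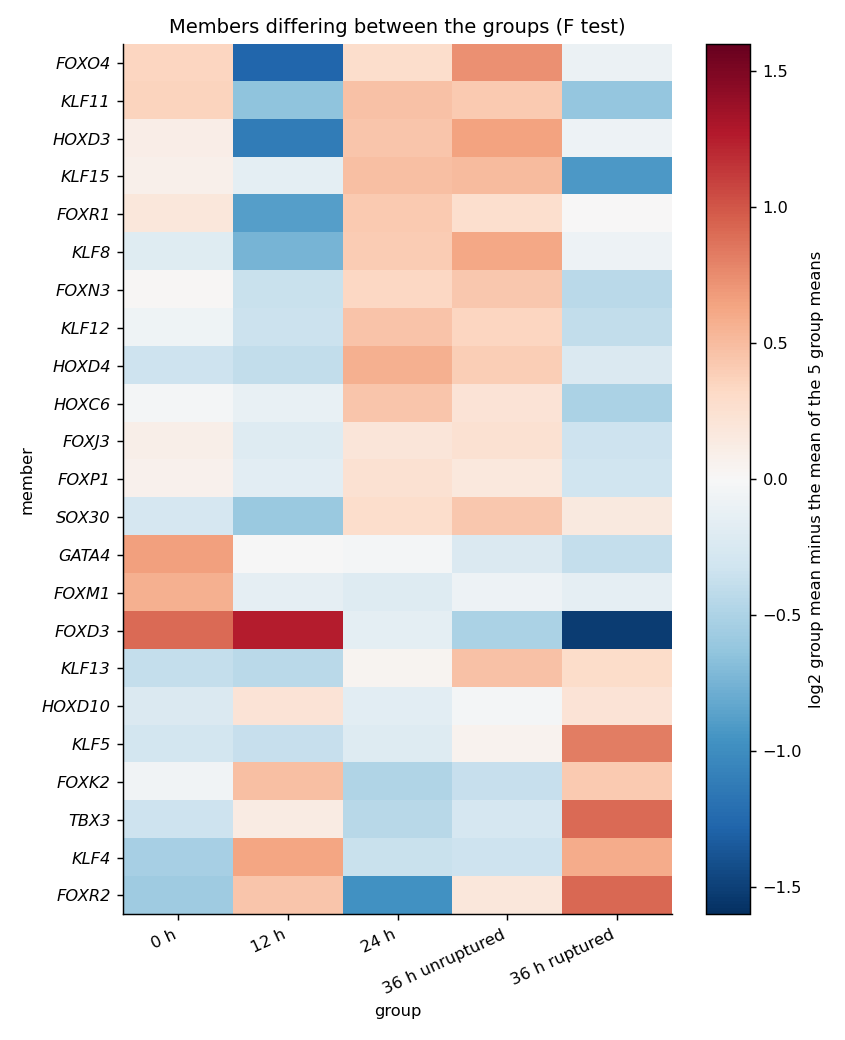
Group means of the 23 members that differed in the F test, each row showing the log2 group mean minus the mean of the 5 group means (red above, blue below). The upper rows (FOXO4, KLF11, HOXD3, KLF15) are blue at 12 h or in ruptured follicles, and the lower rows (KLF4, TBX3, FOXK2) are red there.

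Among the 23, the lowest group mean fell at 12 h in 9 and in ruptured follicles in 8, and the highest in unruptured 36 h follicles in 8 and at 24 h in 6. Of the 4095 single-symbol genes that differed, 22.8% were lowest at 12 h and 27.9% in ruptured follicles, while 19.9% were highest in unruptured 36 h follicles and 13.5% at 24 h. The plot of group means shows one set that is low at 12 h, high at 24 h and in unruptured follicles and low again in ruptured ones, and a smaller set on the mirror course.

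Each step was tested as a contrast, with the share of all single-symbol genes called beside the members' share. At 12 h against 0 h 10 members were called (9.8%, against 14.3% of genes), 3 higher (6.5% of genes) and 7 lower (7.8%). At 24 h against 12 h 14 members were called (13.7%, against 10.9% of genes), 12 higher (5.84%) and 2 lower (5.02%). Between unruptured 36 h and 24 h follicles no member was called (0.00708% of genes, 1 gene, which was lower). An unadjusted p under 0.05 in the same limma fit was found for 5 of the 102, about what that threshold passes by chance. In ruptured against unruptured 36 h follicles 12 members were called (11.8%, against 14.1% of genes), 3 higher (6.47%) and 9 lower (7.67%). In ruptured 36 h against 0 h follicles 16 members were called (15.7%, against 21.3% of genes), 9 higher (9.43%) and 7 lower (11.8%). Of these shares only that at 24 h against 12 h was above that of all genes. Leaving out 1 array took the 12 h count to as few as 6, without 0 h replicate 3, 0 h replicate 4, 12 h replicate 1 or 12 h replicate 2. It took the count at 24 h against 12 h to as few as 9, without 12 h replicate 1, 12 h replicate 4, 24 h replicate 2 or 24 h replicate 3. Group values did not overlap in 8 of the 102 members at 12 h against 0 h (15% of genes). At 24 h against 12 h 19 members did not overlap (19.2% of genes), and between unruptured 36 h and 24 h follicles 1 (5.4%). In ruptured follicles 13 did not overlap against unruptured (21.1% of genes) and 10 against 0 h follicles (19.2%).

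The shares among the 39 brighter members can be read against the 9166 genes at that level. At 24 h against 12 h 11 were called (28.2%, against 15.8% of those genes), 9 higher and 2 lower, where 8.4% of the genes were higher and 7.36% lower. In ruptured against unruptured follicles 11 were called (28.2%, against 20.5%), 2 higher and 9 lower, where 9.12% of the genes were higher and 11.3% lower. At 12 h against 0 h 8 were called (20.5%, against 20.1%), 3 higher and 5 lower, where 9.31% of the genes were higher and 10.8% lower. In ruptured against 0 h follicles 13 were called (33.3%, against 29.4%), 7 higher and 6 lower, where 12.6% of the genes were higher and 16.8% lower. The last 2 shares lie near the background, and between unruptured 36 h and 24 h follicles 0 were called, against 0.0109% of those genes. The calls lean on a spread shared by all 22 arrays. With only the 8 arrays of the groups compared in the fit, 1 member was called at 24 h against 12 h and 2 in ruptured against unruptured follicles.

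**Figure D2:**
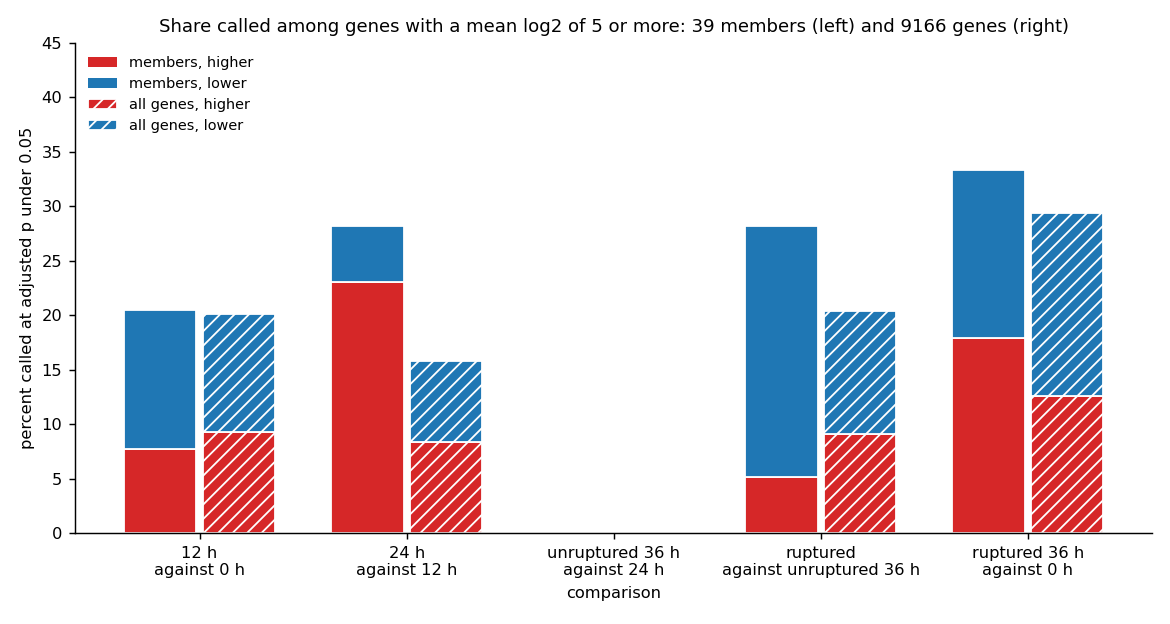
Percent of genes called at adjusted p under 0.05 in each contrast, among the 39 members (plain bars, left) and the 9166 genes (hatched bars, right) with a mean log2 of 5 or more; red is higher and blue lower in the group named first. Most members called at 24 h against 12 h are higher (9 of 11), and most called in ruptured against unruptured follicles are lower (9 of 11).

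Of the KLF genes, KLF11, KLF8, KLF12 and KLF15 were each called higher at 24 h than at 12 h and lower in ruptured than unruptured follicles, and KLF11 and KLF8 were also called lower at 12 h than at 0 h. KLF11, a TGF-beta-inducible repressor, read 6.61, 6.92, 7.39 and 6.92 on the log2 scale at 12 h, against a lowest of 7.47, a median of 7.99 and a highest of 8.36 at 0 h. At 24 h it read 8.05, 8.12, 8.37 and 7.73. Ruptured follicles gave 6.82, 7.01, 6.93 and 7.19, against 8.41, 7.81, 7.61 and 8.25 in unruptured 36 h follicles. All 12 h and all ruptured follicles lay below every 0 h, 24 h and unruptured follicle, with no overlap. KLF11 fell by 1.00 at 12 h against 0 h (SE 0.19, adjusted p = 0.00272) and was 1.11 higher at 24 h than at 12 h (SE 0.21, adjusted p = 0.0036). It fell by 1.04 in ruptured against unruptured follicles (SE 0.21, adjusted p = 0.00392) and by 0.97 in ruptured against 0 h follicles (SE 0.19, adjusted p = 0.00166). These ruptured follicles held 0.488 of the intensity of unruptured ones. Of the other bright KLF11 probe sets, the nearest in level changed by -0.72 at 12 h against 0 h and 0.90 at 24 h against 12 h, both called. Another changed by only -0.005 (adjusted p = 0.992) and 0.025 (adjusted p = 0.97), and the dimmest by -0.80 and 0.55 without a call. At rupture these sets changed by -0.925 and -0.824, both called, and by -0.929 (adjusted p = 0.232).

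KLF15, a regulator of glucose and amino acid metabolism that glucocorticoids induce in other tissues, changed most at rupture. Ruptured follicles read 7.65, 7.37, 7.39 and 7.92, against 8.93, 9.11, 9.04 and 8.94 in unruptured 36 h follicles. The 0 h follicles had a lowest value of 8.06, a median of 8.66 and a highest of 8.81. Every ruptured follicle was below every follicle of the other 4 groups. KLF15 fell by 1.42 against unruptured (SE 0.17, adjusted p = 6.44e-05) and by 1.00 against 0 h follicles (SE 0.16, adjusted p = 0.000204). At 24 h it read 8.92, 9.17, 8.93 and 8.90, against 8.36, 8.70, 7.99 and 8.33 at 12 h. That difference of 0.63 (SE 0.17, adjusted p = 0.0306) did not pass when 12 h replicate 1, 3 or 4 or one of 24 h replicates 1 to 3 was dropped (adjusted p up to 0.0941), nor with the RNA index as covariate.

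KLF8 and KLF12 are both repressors that recruit the corepressor CtBP. KLF8 read 6.57, 6.61, 6.23 and 6.25 at 24 h, against 4.71, 5.47, 5.69 and 5.22 at 12 h. Ruptured follicles gave 5.90, 5.88, 6.17 and 5.77, against 6.76, 6.31, 6.77 and 6.72 in unruptured ones. Neither pair of groups overlapped. KLF8 was 1.14 higher at 24 h than at 12 h (SE 0.18, adjusted p = 0.00103) and fell by 0.71 at rupture (SE 0.18, adjusted p = 0.0177), a call that ended without unruptured replicate 1 (adjusted p = 0.054). Its fall of 0.55 at 12 h against 0 h (SE 0.17, adjusted p = 0.0456) was fragile. That call ended without any one of 0 h replicates 1, 3, 4, 5 and 6 or 12 h replicates 1, 2 and 4, with changes between -0.69 and -0.36 and adjusted p up to 0.19.

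KLF12 read 8.83, 8.82, 9.12 and 8.64 at 24 h, against 8.19, 8.20, 8.11 and 7.70 at 12 h. Ruptured follicles gave 7.98, 7.99, 8.09 and 7.94, against 8.71, 8.90, 8.63 and 8.71 in unruptured ones. The ruptured values were tightly grouped and apart from the unruptured ones. KLF12 was 0.80 higher at 24 h than at 12 h (SE 0.18, adjusted p = 0.0113) and fell by 0.74 at rupture (SE 0.18, adjusted p = 0.0139). KLF12 has 7 probe sets, and over their mean the difference at rupture was 0.01 with an adjusted p of 0.977. The other bright probe set changed by -0.76 there (adjusted p = 0.0547), and 5 dim ones had changes above 0.

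KLF4 took the mirror course. It is a zinc finger factor known for arresting epithelial growth and for reprogramming cells to pluripotency. The 12 h follicles read 9.36, 8.56, 8.65 and 8.81, against a lowest of 7.21, a median of 7.77 and a highest of 7.87 at 0 h. At 24 h the values were 7.74, 7.62, 7.90 and 8.18. Ruptured follicles gave 8.66, 9.19, 9.42 and 7.95, against 8.11, 7.61, 8.02 and 7.84 in unruptured ones. All 12 h follicles lay above all 0 h and 24 h follicles, but ruptured replicate 8 fell within the unruptured range. KLF4 was 1.16 higher at 12 h than at 0 h (SE 0.23, adjusted p = 0.00372) and 1.12 higher in ruptured than in 0 h follicles (SE 0.23, adjusted p = 0.00258).

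The other KLF4 steps depended on single arrays. It fell by 0.98 at 24 h against 12 h (SE 0.26, adjusted p = 0.0255), a call lost on dropping 12 h replicate 1 or 4 or one of 24 h replicates 1 to 3 (adjusted p up to 0.0959), and with the RNA index as covariate. It was 0.91 higher in ruptured than unruptured follicles (SE 0.26, adjusted p = 0.0294), which ended without unruptured replicate 2 or 4 or ruptured replicate 5, 6 or 7 (adjusted p up to 0.104). The second KLF4 probe set changed by 1.11 at 12 h against 0 h (adjusted p = 0.0103) and by 1.01 at rupture (adjusted p = 0.0298). At 24 h against 12 h it changed by -0.84 without a call (adjusted p = 0.0865).

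KLF5 and KLF13 were higher late in the interval. KLF5, which promotes proliferation in epithelia and vascular smooth muscle, read 8.54, 6.38, 7.32 and 7.60 in ruptured follicles, against a lowest of 6.01, a median of 6.33 and a highest of 6.77 at 0 h. Ruptured replicate 6 lay inside the 0 h range and the other 3 above it. The difference was 1.11 (SE 0.28, adjusted p = 0.0111), and 0.77 against unruptured follicles (SE 0.31, adjusted p = 0.141), which did not pass. KLF13, which activates the chemokine gene CCL5 in T lymphocytes, read 8.50, 8.99, 9.18 and 8.69 in ruptured follicles, against a lowest of 7.97, a median of 8.14 and a highest of 8.50 at 0 h. Ruptured replicate 5 met the top of the 0 h range and the other 3 were above it. KLF13 was 0.67 higher (SE 0.17, adjusted p = 0.00935), with a second bright probe set at 0.14 (adjusted p = 0.78). The unruptured follicles were at 9.02 ± 0.35 (SD, n = 4), overlapping the ruptured ones at 8.84 ± 0.30 (SD, n = 4).

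**Figure D3:**
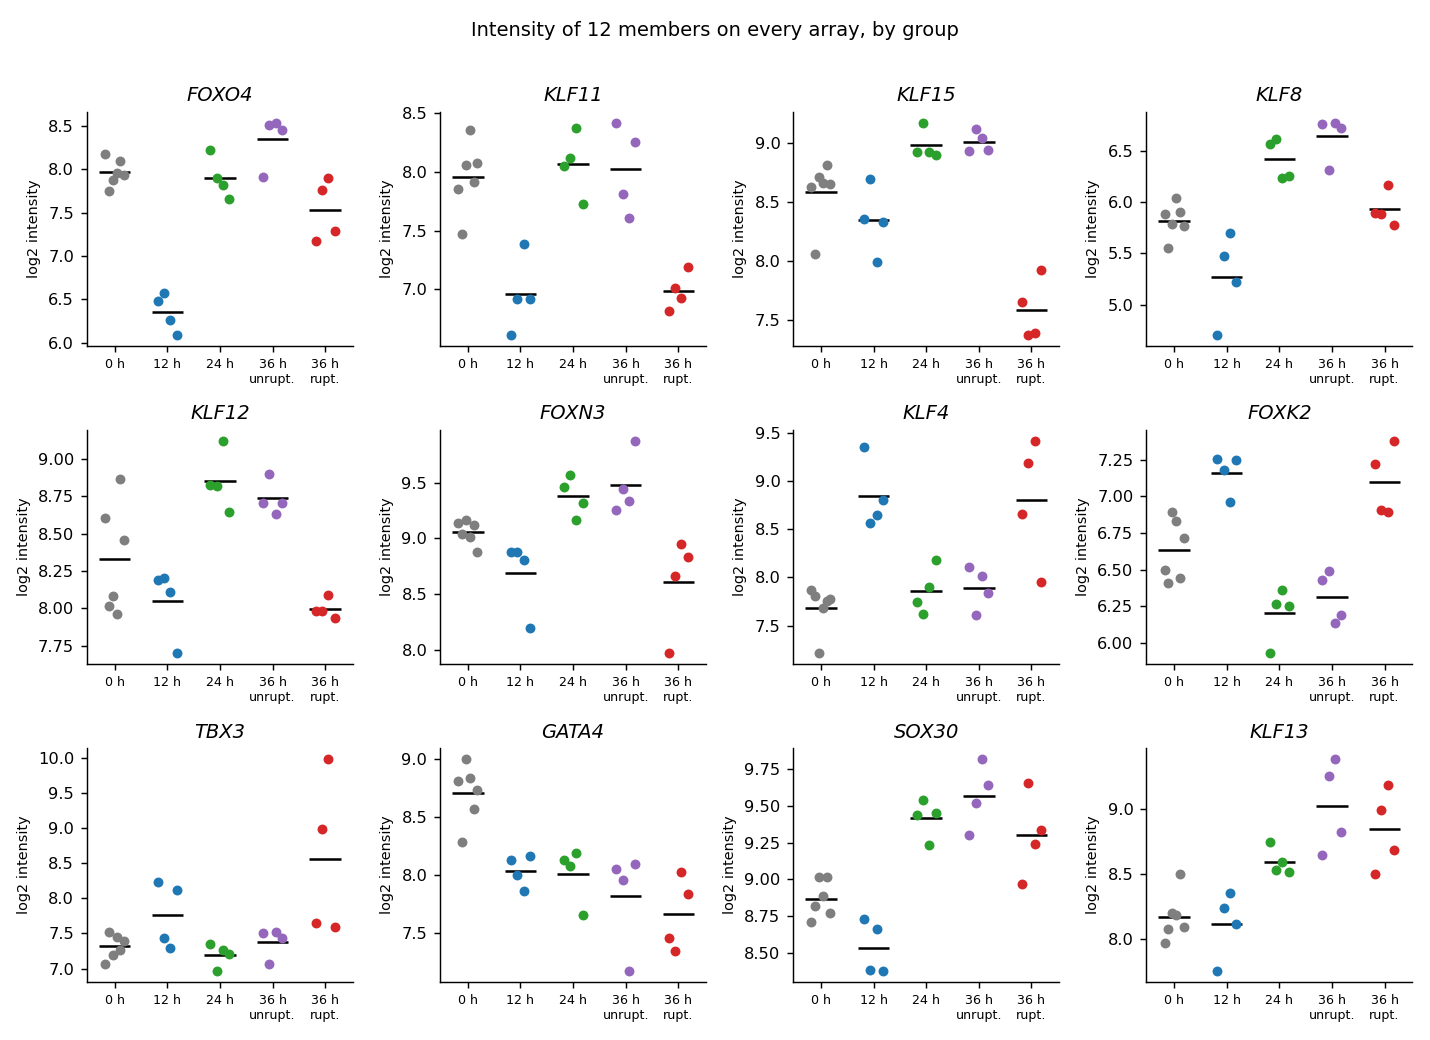
Log2 intensity of 12 members on every array (points) with the group mean (bar), for 0 h (6 arrays) and 12 h, 24 h, unruptured and ruptured 36 h follicles (4 arrays each). KLF11 and FOXO4 dip at 12 h and again in ruptured follicles, KLF4 and FOXK2 peak there, and GATA4 is below its 0 h level in all later groups.

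The remaining KLFs with a mean log2 of 5 or more were not called in any contrast. KLF6, an injury-response factor, had group means between 9.72 at 0 h and 10.35 in unruptured follicles. KLF2, which maintains quiescent endothelium under flow, was at 7.39 ± 0.47 in ruptured and 7.93 ± 0.38 in 0 h follicles (SD, n = 4 and 6), a change of -0.54 with an adjusted p of 0.103. KLF3, KLF7 and KLF10 spanned 0.55, 0.56 and 0.72 between their lowest and highest group means. KLF1, which drives erythroid globin genes, was dim at 2.81 to 3.80 in every group mean.

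FOXO4 had the strongest F test of all members (adjusted p = 6.59e-06). The 12 h follicles read 6.48, 6.58, 6.26 and 6.09, against a lowest of 7.75, a median of 7.94 and a highest of 8.18 at 0 h. At 24 h the values were 8.23, 7.90, 7.83 and 7.66. Ruptured follicles gave 7.18, 7.76, 7.90 and 7.29, against 7.92, 8.51, 8.54 and 8.46 in unruptured ones. The 12 h follicles stood below every other follicle, and ruptured follicles all lay below unruptured ones, though only by a small gap at unruptured replicate 1. FOXO4 fell by 1.61 at 12 h against 0 h, to 0.327 of the 0 h intensity (SE 0.17, adjusted p = 1.37e-05), and was 1.55 higher at 24 h than at 12 h (SE 0.19, adjusted p = 0.000133). At rupture it fell by 0.82 (SE 0.19, adjusted p = 0.00801). FOXO4 has 1 probe set, so no second measure of it was at hand.

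FOXO1 was not called in any contrast. Ruptured follicles read 8.81, 8.27, 8.39 and 9.01, against 9.61, 10.12, 8.95 and 8.76 in unruptured ones. Ruptured replicates 5 and 8 overlapped unruptured replicates 3 and 4. The change of -0.74 had an SE of 0.27 and an adjusted p of 0.0958. FOXO3 and FOXL2, the other forkhead factors best known in the ovary, were not analysed here because the annotation gives neither as a single symbol.

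Of 9 measured genes that control FOXO proteins through the PI3K pathway, 1 was called at 12 h against 0 h (14.3% of single-symbol genes). At 24 h against 12 h 2 were called (10.9% of genes). In ruptured follicles 2 were called against unruptured (14.1%) and 3 against 0 h follicles (21.3%). SGK1, a kinase that phosphorylates FOXO proteins and is induced by serum and glucocorticoids, was 0.81 higher at 12 h than at 0 h (SE 0.18, adjusted p = 0.00648) and 1.22 higher in ruptured than 0 h follicles (SE 0.18, adjusted p = 0.0001). IRS2, an insulin receptor adaptor, was 1.26 higher at 24 h than at 12 h (SE 0.23, adjusted p = 0.00232). PIK3R1, a regulatory subunit of PI3K, fell by 1.58 in ruptured against 0 h follicles (SE 0.37, adjusted p = 0.00541). Its fall of 1.49 against unruptured follicles (SE 0.40, adjusted p = 0.0229) ended without unruptured replicate 1, 2 or 3 or ruptured replicate 5 or 7 (adjusted p up to 0.0808). PIK3CA, the catalytic partner, was 0.43 higher at 24 h than at 12 h (adjusted p = 0.0176) and fell by 0.35 at rupture (adjusted p = 0.045). The first of these ended without 24 h replicate 1 or 3 (adjusted p up to 0.0598) and the second without any one of the 8 arrays (adjusted p up to 0.121). Both PIK3CA calls ended with the RNA index as covariate.

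FOXK2, a forkhead protein that recruits the SIN3A corepressor complex, moved the opposite way to FOXO4. At 12 h the follicles read 7.26, 7.18, 6.96 and 7.25, against a lowest of 6.41, a median of 6.61 and a highest of 6.90 at 0 h. At 24 h it read 5.93, 6.26, 6.36 and 6.25. Ruptured follicles gave 7.22, 6.91, 6.89 and 7.38, against 6.43, 6.49, 6.13 and 6.19 in unruptured ones. The 12 h follicles were above all 0 h and 24 h ones, and the ruptured above all unruptured ones. FOXK2 fell by 0.96 at 24 h against 12 h (SE 0.15, adjusted p = 0.000994) and was 0.79 higher at rupture (SE 0.15, adjusted p = 0.00272). The second probe set changed by 1.23 at rupture (adjusted p = 0.00118) and by 0.84 in ruptured against 0 h follicles (adjusted p = 0.00544). It was not called at 12 h against 0 h (0.26, adjusted p = 0.504) or at 24 h against 12 h (-0.71, adjusted p = 0.0514).

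Smaller FOXK2 differences were 0.53 at 12 h against 0 h (SE 0.14, adjusted p = 0.0205) and 0.47 in ruptured against 0 h follicles (SE 0.14, adjusted p = 0.0263). The first ended without 12 h replicate 1, 2 or 4 (adjusted p up to 0.0649). The second ended without 0 h replicate 1, 2 or 5 or ruptured replicate 5 or 8 (adjusted p up to 0.104).

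FOXN3, FOXP1 and FOXJ3 were low in ruptured follicles. FOXN3, a checkpoint repressor, read 7.97, 8.66, 8.95 and 8.84 there, against 9.25, 9.44, 9.33 and 9.87 in unruptured ones. FOXP1, a repressor with roles in lymphocyte, heart and lung development, read 10.03, 9.99, 9.89 and 10.05 in ruptured follicles, against 10.63, 10.37, 10.29 and 10.58 in unruptured ones. FOXJ3, which activates Mef2c in mouse muscle, read 9.44, 9.17, 9.27 and 9.49 in ruptured follicles, against 10.04, 9.90, 9.83 and 9.93 in unruptured ones. In all 3 genes every ruptured follicle was below every unruptured one. FOXN3 fell by 0.87 (SE 0.20, adjusted p = 0.0092), FOXP1 by 0.48 (SE 0.11, adjusted p = 0.0103) and FOXJ3 by 0.58 (SE 0.12, adjusted p = 0.00444).

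FOXP1 and FOXJ3 were also below their 0 h levels in ruptured follicles, by 0.39 (SE 0.10, adjusted p = 0.0133) and 0.43 (SE 0.11, adjusted p = 0.0112). Of the other bright FOXP1 probe sets, the one nearest in level fell by 0.54 at rupture (adjusted p = 0.00764), and a second FOXN3 set fell by 0.66 (adjusted p = 0.0419). A further bright FOXP1 set changed by -0.24 there (adjusted p = 0.487) and a further FOXN3 set by -0.27 (adjusted p = 0.467). The second FOXJ3 set changed by -0.23 at rupture (adjusted p = 0.55) and by 0.08 against 0 h (adjusted p = 0.83). Both other bright FOXP1 sets were called lower against 0 h. At 24 h against 12 h FOXN3 was 0.69 higher (SE 0.20, adjusted p = 0.0453) and FOXP1 0.42 higher (SE 0.11, adjusted p = 0.029). The FOXN3 call ended without any one of the 8 arrays (adjusted p up to 0.152), and the FOXP1 call on dropping one of 12 h replicates 1, 2 and 4 or of 24 h replicates 1 to 3 (adjusted p up to 0.0886). Both ended with the RNA index as covariate.

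FOXM1, which activates genes of mitosis, fell after hCG and did not return. At 12 h the follicles read 5.51, 5.85, 5.11 and 6.01, against a lowest of 6.08, a median of 6.25 and a highest of 6.77 at 0 h. Ruptured follicles gave 5.61, 6.12, 5.39 and 5.37. All 12 h follicles lay below all 0 h ones, and 1 ruptured follicle, replicate 6, reached the 0 h range. FOXM1 fell by 0.72 at 12 h (SE 0.22, adjusted p = 0.043) and by 0.71 in ruptured follicles (SE 0.22, adjusted p = 0.0288), both against 0 h. The first ended without any one of 0 h replicates 1 to 5 or 12 h replicates 1 to 3 (adjusted p up to 0.154) and with the RNA index as covariate. The second ended without 0 h replicate 1 or ruptured replicate 5, 7 or 8 (adjusted p up to 0.0921).

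The 3 dim FOX genes that differed in the F test were FOXD3, FOXR1 and FOXR2. FOXR1, a little-studied forkhead gene, read 2.22, 2.60, 2.37 and 2.44 at 12 h, against a lowest of 3.08, a median of 3.40 and a highest of 4.04 at 0 h. It fell by 1.06 (SE 0.24, adjusted p = 0.00866) and was 1.30 higher at 24 h than at 12 h (SE 0.27, adjusted p = 0.00572). FOXD3, a pluripotency and neural crest factor, read 0.67, 0.64, -0.16 and -0.40 in ruptured follicles, against a lowest of 0.97, a median of 3.05 and a highest of 3.39 at 0 h. It fell by 2.42 (SE 0.65, adjusted p = 0.0137), with the second probe set at 0.63 (adjusted p = 0.297). FOXR2, an oncogene of brain tumours, was 1.49 higher in ruptured than 0 h follicles (SE 0.47, adjusted p = 0.0361). That call ended without 0 h replicate 4 or 6 or any one ruptured array (adjusted p up to 0.0919). All 3 lie below the array medians, where intensities carry little signal.

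GATA4 fell after hCG and stayed low. At 12 h the follicles read 8.13, 8.00, 7.86 and 8.16, against a lowest of 8.28, a median of 8.77 and a highest of 8.997 at 0 h. At 24 h it read 8.12, 8.08, 8.19 and 7.66. Ruptured follicles gave 7.46, 7.35, 8.03 and 7.84, against 8.05, 7.95, 7.17 and 8.10 in unruptured ones. Every follicle taken after hCG was below every 0 h follicle, and the 4 later groups overlapped one another. GATA4 fell by 1.03 in ruptured against 0 h follicles, to 0.488 of the 0 h intensity (SE 0.19, adjusted p = 0.000899), and the other 2 probe sets fell by 0.80 (adjusted p = 0.047) and 0.90 (adjusted p = 0.000364). At 12 h against 0 h the fall was 0.67 (SE 0.19, adjusted p = 0.0328).

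The 12 h call of GATA4 ended without 0 h replicate 1, 3, 4 or 6, without any one 12 h array (adjusted p up to 0.091), and with the RNA index as covariate. One other GATA4 probe set fell by 0.79 there (adjusted p = 0.00211). GATA6, which shares GATA4's roles in the ovary, was not called. It read 10.53, 10.90, 10.78 and 10.59 in ruptured follicles, against a lowest of 10.09, a median of 10.70 and a highest of 11.01 at 0 h. All 5 groups overlapped, the group means spanned 0.26, and the F test gave an adjusted p of 0.877. Ruptured minus 0 h was 0.06 for GATA6 with an SE of 0.23; the difference between the 2 genes was not tested. The theca marker CYP17A1 and the granulosa marker CYP19A1, the enzyme that forms estrogens, were also lower in ruptured against 0 h follicles. Their changes were -4.81 and -3.93 (adjusted p = 0.000162). Other markers of these cell types differed. Of 5 measured theca markers 3 were called lower and 1, STAR, higher (0.94), and of 7 granulosa markers 2 were called, both lower. The granulosa markers FST (1.05) and INHBA (0.31) were higher there without a call. The part of these cell types in the fall of GATA4 was not tested.

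GATA2, a factor of blood and endothelial cells, had group means from 5.35 at 0 h to 5.83 at 12 h and was not called. GATA3, a T lymphocyte and trophoblast factor, was dim at 3.34 to 3.82. GATA1, the erythroid and megakaryocyte factor, was also dim, at 3.86, 4.60, 4.75 and 3.96 in ruptured follicles, against 1.49, 3.76, 2.65 and 1.77 in unruptured ones. It was 1.88 higher (SE 0.58, adjusted p = 0.0457), and its other probe set changed by -0.99 (adjusted p = 0.0964). The GATA1 call ended without unruptured replicate 1, 3 or 4 or any one ruptured array (adjusted p up to 0.144), and with the RNA index as covariate. The 3 measured red cell markers summed to 83.36 to 166.6 in ruptured and 37.02 to 118.7 in unruptured follicles, with none called. Both measured partners of GATA proteins, LMO2 and LDB1, were without a call in the 5 contrasts.

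Of the SOX genes only SOX30 passed the F test (adjusted p = 0.000219). SOX30 is known as a regulator of late spermatogenesis in mice. The 24 h follicles read 9.44, 9.54, 9.23 and 9.45, against 8.73, 8.38, 8.66 and 8.38 at 12 h. Ruptured follicles gave 8.97, 9.65, 9.24 and 9.34, against a lowest of 8.71, a median of 8.86 and a highest of 9.02 at 0 h. All 24 h follicles were above all 12 h ones, and 3 of 4 ruptured follicles above all 0 h ones. SOX30 was 0.88 higher at 24 h than at 12 h (SE 0.15, adjusted p = 0.00162), and its second probe set 0.79 higher (adjusted p = 0.00881).

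In ruptured against 0 h follicles SOX30 was 0.43 higher (SE 0.14, adjusted p = 0.0379) and the second set 0.72 higher (adjusted p = 0.00338). The first ended without 0 h replicate 1, 2, 4 or 6 or ruptured replicate 6, 7 or 8 (adjusted p up to 0.161). Which transcript the SOX30 probes read in this tissue was not examined.

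SOX4, a factor of progenitor and tumour cells, read 11.40, 10.78, 11.34 and 11.43 in ruptured follicles, against a lowest of 10.22, a median of 11.01 and a highest of 11.28 at 0 h. Of the 4 ruptured follicles 3 were above the 0 h range, but the change of 0.32 had an SE of 0.23 and an adjusted p of 0.414. The endothelial factors SOX17 and SOX18 were not called. SOX17 was at 6.62 ± 0.05 in ruptured (SD, n = 4) and 6.18 ± 0.57 in 0 h follicles (SD, n = 6), while summed intensity of 9 endothelial markers ranged from 2024 to 3061 in ruptured and from 954.5 to 2021 in 0 h follicles. SOX18 group means lay between 4.37 and 4.97. SOX9, a factor of Sertoli cells in the testis, was dim with group means of 1.56 to 2.57.

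SOX21 and SOX5, both dim, were called in 1 contrast each. SOX21, a factor of neural progenitors, was 1.71 higher in ruptured than 0 h follicles (SE 0.52, adjusted p = 0.029). That call ended without 0 h replicate 1, 2, 4 or 6 or ruptured replicate 5 or 6 (adjusted p up to 0.0778). SOX5, a partner of SOX9 in cartilage, was named after its values were seen because it completes the count. It was 0.87 higher at 24 h than at 12 h (SE 0.26, adjusted p = 0.0494), and its second probe set 0.70 higher without a call (adjusted p = 0.581). Its stability without single arrays is not reported here.

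HOX calls over the 6 tests came from the HOXC and HOXD clusters: 3 of 6 HOXD and 1 of 4 HOXC genes, and none of 9 HOXA or 7 HOXB genes. That is 15.4% of the 26 HOX genes, against 34.8% of single-symbol genes called in any of the 6 tests. Of the HOXA genes 3 and of the HOXB genes 0 had a mean log2 of 5 or more. HOXD3, from the anterior end of the cluster, read 3.63, 4.12, 2.71 and 3.65 at 12 h, against a lowest of 4.38, a median of 4.78 and a highest of 5.11 at 0 h. The 24 h follicles gave 4.79, 5.61, 5.52 and 4.43. The 12 h follicles lay below all follicles of both groups. HOXD3 fell by 1.23 at 12 h against 0 h (SE 0.29, adjusted p = 0.0105) and was 1.56 higher at 24 h than at 12 h (SE 0.32, adjusted p = 0.00536). Its mean log2 of 4.65 was below 5, and its other 2 probe sets changed by 0.09 and -0.42 at 12 h without a call.

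HOXD4, the neighbour of HOXD3 in the cluster, read 6.20, 6.35, 6.07 and 6.07 at 24 h, against 5.72, 5.22, 4.98 and 4.92 at 12 h. The groups did not overlap, and HOXD4 was 0.96 higher at 24 h (SE 0.21, adjusted p = 0.00854). Ruptured follicles read 5.40, 5.55, 5.23 and 5.31, against 6.21, 5.45, 6.03 and 6.32 in unruptured ones. That change of -0.63 had an SE of 0.21 and an adjusted p of 0.0649.

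HOXC6 read 7.49, 7.81, 7.27 and 8.18 in ruptured follicles, against 8.64, 8.18, 8.38 and 8.42 in unruptured ones. The highest ruptured and the lowest unruptured follicle nearly met. HOXC6 fell by 0.72 (SE 0.18, adjusted p = 0.0151), and a second bright probe set by 0.54 (adjusted p = 0.0872). The call ended without unruptured replicate 1 or ruptured replicate 5 or 7 (adjusted p up to 0.0562).

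HOXD10, from the posterior end of the cluster, was 0.45 higher at 12 h than at 0 h (SE 0.14, adjusted p = 0.0407) and 0.45 higher in ruptured than 0 h follicles (SE 0.14, adjusted p = 0.027). It read 8.25, 8.18, 7.89 and 8.33 in ruptured follicles, against a lowest of 7.47, a median of 7.71 and a highest of 8.01 at 0 h. Ruptured replicate 7 fell in the 0 h range. The second bright probe set changed by -0.31 at 12 h and -0.06 in ruptured follicles without a call. The 12 h call ended without any one of 0 h replicates 2 to 6 or 12 h replicates 2 to 4 (adjusted p up to 0.149) and with the RNA index as covariate. The other ended without 0 h replicate 3 or 5 or ruptured replicate 5, 6 or 8 (adjusted p up to 0.0872).

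Of 6 measured TALE cofactors of HOX proteins 2 were called, where 32.5% of single-symbol genes were called in at least 1 of the 5 contrasts. PKNOX2 was at 7.33 ± 0.12 at 12 h (SD, n = 4) and 7.22 ± 0.14 in ruptured follicles (SD, n = 4), against 8.21 ± 0.22 at 0 h (SD, n = 6). It fell by 0.89 at 12 h (SE 0.13, adjusted p = 0.000341) and by 0.99 in ruptured follicles (SE 0.13, adjusted p = 4.3e-05), with no overlap with 0 h. PBX3 followed the low-high-low course: it fell by 0.45 at 12 h against 0 h (SE 0.12, adjusted p = 0.0254), was 0.63 higher at 24 h than at 12 h (SE 0.14, adjusted p = 0.00808), and fell by 0.69 at rupture (SE 0.14, adjusted p = 0.00314). Ruptured minus 0 h was -0.43 (SE 0.12, adjusted p = 0.0219). The first PBX3 call ended on dropping 0 h replicate 4 or one of 12 h replicates 1 and 2 (adjusted p up to 0.0872) and the last without 0 h replicate 4 or ruptured replicate 5 (adjusted p up to 0.0942). Over the mean of all PBX3 probe sets the 24 h difference was -1.22 with an adjusted p of 0.476.

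TBX3 was the single TBX gene with a mean log2 of 5 or more. TBX3 is a repressor in limb and mammary development. Ruptured follicles read 7.65, 8.98, 9.98 and 7.59, against 7.50, 7.06, 7.52 and 7.43 in unruptured ones, and against a lowest of 7.07, a median of 7.33 and a highest of 7.52 at 0 h. Ruptured replicates 6 and 7 were far above both of those groups, and replicates 5 and 8 only just above them. TBX3 was 1.24 higher in ruptured than 0 h follicles (SE 0.34, adjusted p = 0.0172), and a second bright probe set 1.28 higher (adjusted p = 0.0122). Without ruptured replicate 7 the difference was 0.76 (adjusted p = 0.069), and without replicate 6 it was 1.09 (adjusted p = 0.0643). Against unruptured follicles the change of 1.17 had an SE of 0.37 and an adjusted p of 0.0545. KRT7, a dim keratin marker of surface epithelium, was called higher with KLF4 at rupture (1.76, adjusted p = 0.0487). It was also called higher with KLF4, KLF5 and TBX3 in ruptured against 0 h follicles (2.16, adjusted p = 0.00558). KRT18, a brighter marker of the same list, was called lower at rupture (-0.75, adjusted p = 0.0291). Thus 1 of the 5 markers was called higher there and 1 lower. Summed intensity of the 5 surface epithelium markers ranged from 576.9 to 734.8 in ruptured, from 728.1 to 956.5 in unruptured and from 578.2 to 716.6 in 0 h follicles, and their part in these results was not tested.

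FOXC1, a mesenchymal forkhead factor that was not called, had its higher ruptured values in replicates 6 and 7 as TBX3 did, at 5.36, 6.31, 6.74 and 5.24, against a lowest of 4.77, a median of 5.25 and a highest of 6.03 at 0 h. Among ruptured follicles KLF4 was also highest in replicates 6 and 7, whereas KLF5 and SOX4 were lowest in replicate 6. The highest FOXC1 group mean was at 12 h (6.15 ± 0.87, SD, n = 4). The dim lineage factors FOXJ1, TBX21 and FOXP3 were not called: FOXJ1, which drives motile cilia, ranged from 0.12 to 6.76 among the 0 h follicles alone, TBX21 of type 1 helper T cells had group means of 2.85 to 3.51, and FOXP3 of regulatory T cells 1.92 to 3.00.

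The SP factors, GC-box proteins closest to the KLFs, and corepressors that KLF and FOX proteins use were followed as partners. Of 8 SP genes 2 were called in ruptured against unruptured follicles, where 14.1% of single-symbol genes were called. These were SP1 at -0.47 (SE 0.13, adjusted p = 0.0322) and SP3 at -0.40 (SE 0.12, adjusted p = 0.044). In ruptured against 0 h follicles 3 of the 8 were called, all lower, against 21.3% of genes. SP3 fell there by 0.48 (SE 0.11, adjusted p = 0.00502) and SP4, a dim gene, by 0.83 (SE 0.26, adjusted p = 0.0314). The first SP1 call ended without unruptured replicate 1, 3 or 4 or ruptured replicate 5, 6 or 7 (adjusted p up to 0.11). The first SP3 call ended without unruptured replicate 1, 2 or 4 or ruptured replicate 6, 7 or 8 (adjusted p up to 0.142). That SP3 call also ended with quantile normalization, with array weights and with the RNA index as covariate. The call of SP1 against 0 h ended without 0 h replicate 1, 3, 4 or 5 or ruptured replicate 5, 6 or 7 (adjusted p up to 0.141). The SP4 call ended without 0 h replicate 1, 5 or 6 or ruptured replicate 6 or 7 (adjusted p up to 0.0945).

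Of 7 measured corepressors only TLE3, a Groucho-type corepressor, was called, in 4 contrasts. Of single-symbol genes 32.5% were called in at least 1 contrast. It averaged 7.93 ± 0.18 at 12 h (SD, n = 4) and 7.23 ± 0.11 at 0 h (SD, n = 6), and 8.11 ± 0.33 in ruptured and 7.24 ± 0.24 in unruptured follicles (SD, n = 4 each). TLE3 was 0.70 higher at 12 h than at 0 h (SE 0.17, adjusted p = 0.0131) and fell by 0.86 at 24 h against 12 h (SE 0.19, adjusted p = 0.00838). It was 0.87 higher in ruptured than unruptured (SE 0.19, adjusted p = 0.0055) and 0.88 higher than in 0 h follicles (SE 0.17, adjusted p = 0.00132), a course like that of KLF4 and FOXK2.

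The 12 h against 0 h contrast and the ruptured against unruptured contrast share no array, so their calls can be set side by side. Of the 10 members called in the first and the 12 in the second, 5 were called in both (50% of the first list and 41.7% of the second), all in the same direction. FOXO4, KLF11 and KLF8 were lower and KLF4 and FOXK2 higher in both. Across all single-symbol genes 855 were called in both (42.3% and 42.8% of the lists of 2021 and 1999), 845 of them in the same direction. The shares for members and for all genes were close.

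The 24 h against 12 h contrast also shares no array with the rupture contrast, but it too comes from that fit. Of its 14 members 9 were called at rupture as well (64.3%, and 75% of the 12), all 9 in the opposite direction. Across all genes 875 were called in both (57% of 1534 and 43.8% of 1999), and all 875 changed in opposite directions. No test of these overlaps was made.

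**Figure D4:**
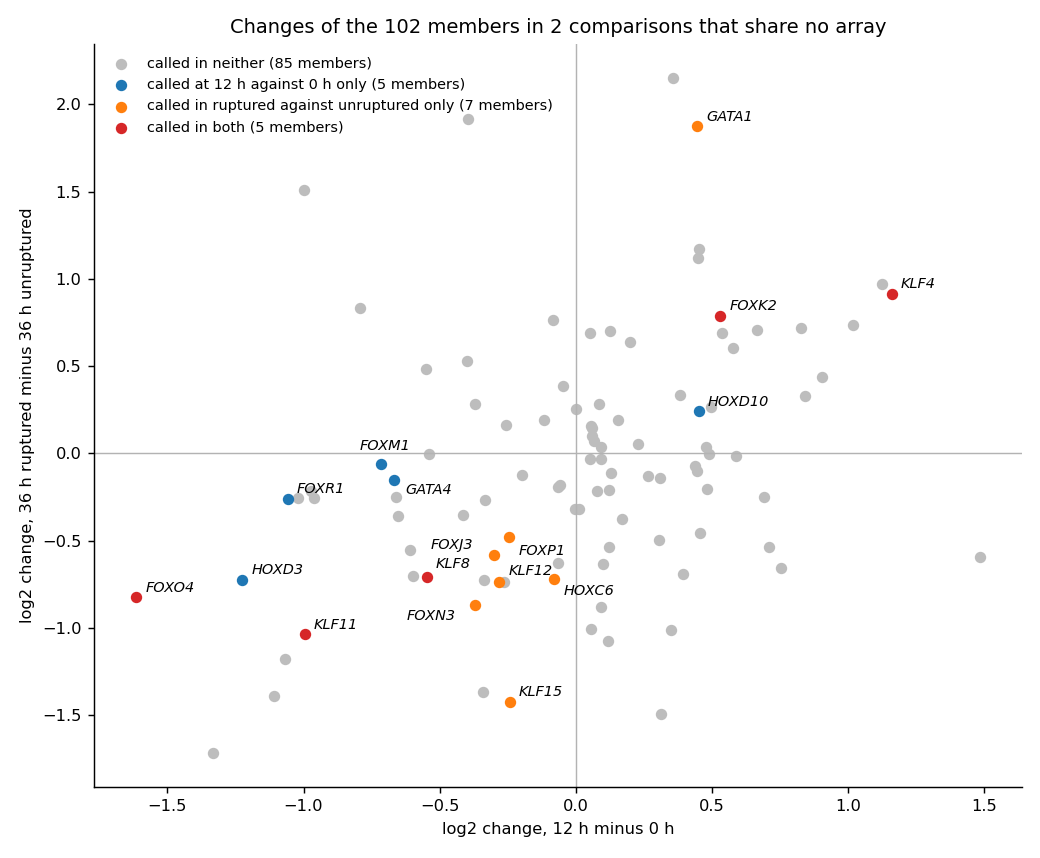
Log2 change of each of the 102 members at 12 h minus 0 h (horizontal) and in ruptured minus unruptured 36 h follicles (vertical), coloured by the contrasts in which it was called. The 5 members called in both lie in the lower left (FOXO4, KLF11, KLF8) and upper right (KLF4, FOXK2) corners of the plot.

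Other probe sets of the same genes gave a second reading that the choice of probe set did not use. Called members with other bright probe sets offered 46 such readings over the 5 contrasts, from 14 genes, and 43 of them had the same sign as the chosen set. The 43 go by sign alone and include KLF11 readings of -0.005 at 12 h against 0 h and 0.025 at 24 h against 12 h. Of the 46, 24 were also called, and none was called in the opposite direction. Among 33 dim readings 22 had the same sign and 2 were also called. With the mean of all probe sets in place of the brightest, every call of HOXD10, FOXD3, KLF12, KLF13, TBX3, GATA1, HOXC6, FOXJ3, FOXR1, PBX3, SP1 and SP3 in a contrast ended. So did the 12 h call of HOXD3, the 24 h against 12 h calls of KLF15 and FOXN3, and both calls of FOXP1 in ruptured follicles. The 3 bright readings of opposite sign came from HOXD10 in 2 contrasts and FOXJ3 in 1.

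**Figure D5:**
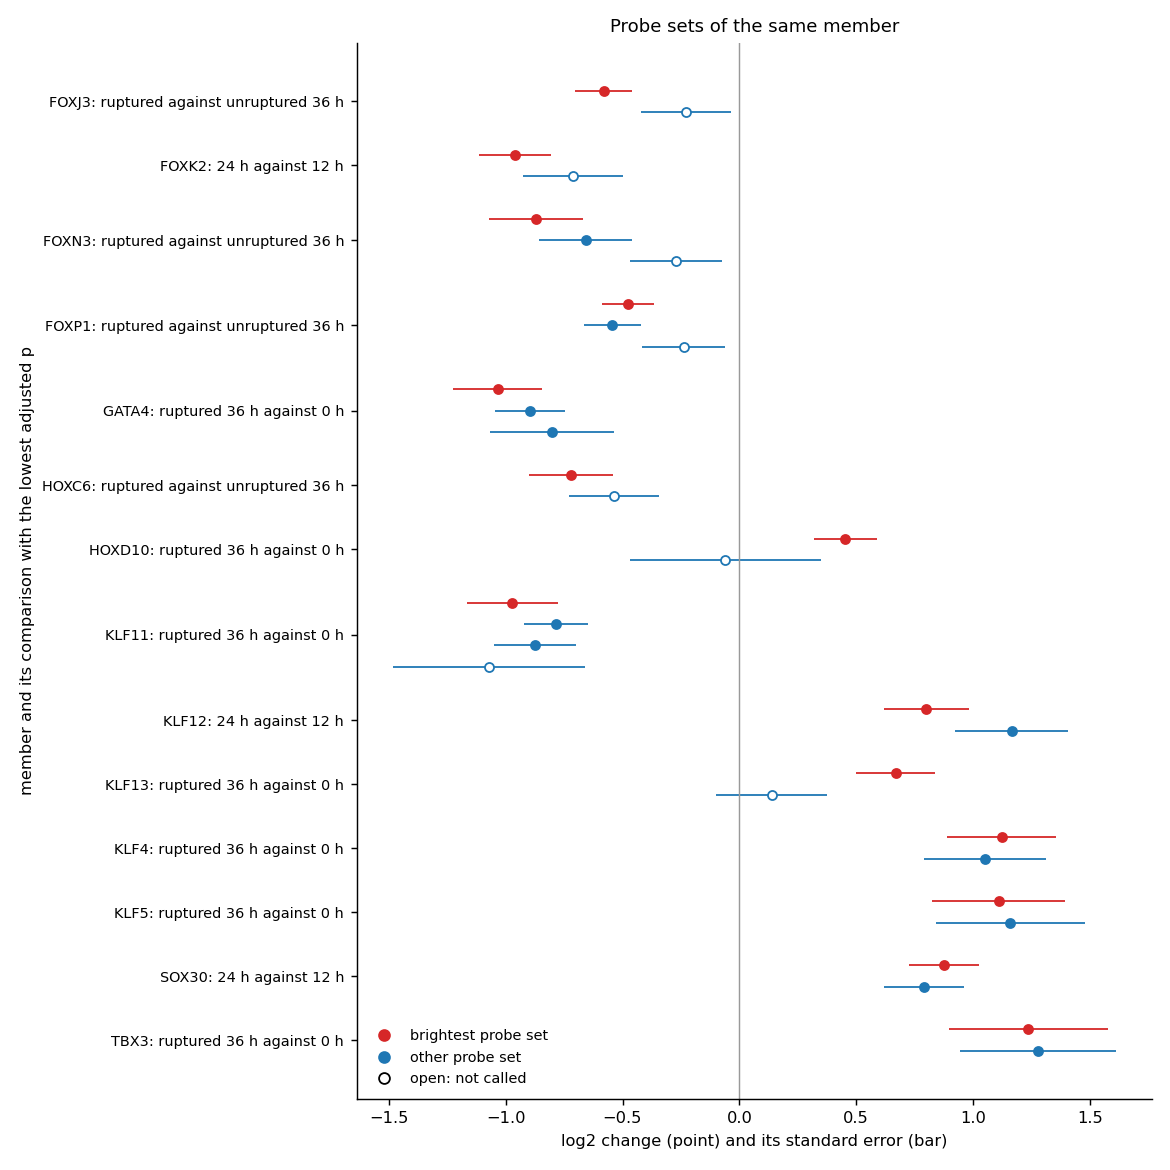
Log2 change (point) with its standard error (bar) for each probe set with a mean log2 of 5 or more, in the 14 called members that have several, each in its contrast with the lowest adjusted p; red is the chosen probe set and open points were not called. The 33 probe sets shown include the 14 chosen ones, which lie on their own side by definition. Of the other sets all lie on the side of the chosen set except one of HOXD10.

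In all, 26 members were called in at least 1 of the 5 contrasts (25.5%, against 32.5% of single-symbol genes), 19 of them among the 39 brighter members (48.7%, against 44.9% of genes at that level). The other 76 were called in no test, 20 of the 76 with a mean log2 of 5 or more. Those 20 included FOXN2, FOXP4, HOXA3, HOXA5, HOXA9, HOXD9, SOX6, SOX12 and SOX13 beside the genes given above. In the self-test on simulated data the same fit recovered 73% of 2-fold changes at 12 h against 0 h and 72% in ruptured against unruptured follicles. Those changes were planted only in probe sets with a mean log2 above a limit higher than 5. Some of the 20 genes, such as SOX6 (mean log2 5.158) and HOXA9 (5.29), lie below that limit. A missing call for one of these genes therefore does not show that its level was constant.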

How the data were processed

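Total RNA of individual follicles was hybridised to 1-colour Affymetrix rhesus arrays. The deposited values are intensities on a linear scale, from 0.0361 to 15137, and the authors made them with RMA, per the submitters' processing notes; version and options are not given in the sources used here. The log2 of these intensities was fitted with limma 3.58.1 (R 4.3.3), using lmFit and eBayes over all 22 arrays with 5 group means, a two-sided test and Benjamini-Hochberg adjustment over 52766 probe sets, after leaving out 99 control probe sets. Calls were made at adjusted p under 0.05. Groups came from the sample titles. Array medians were 4.709 to 4.739, no 2 arrays were identical, and the number of arrays limits precision. Array annotation gave the symbols; 97 of 102 members had a gene ID in the RefSeq table, and the others keep the annotation's name.

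The members and all lists (partners, cell type markers) were chosen with earlier results of these data known. Named genes are, per family, up to 6 members called in the F test with the widest range of group means, per contrast up to 6 called members at each end, a fixed panel of ovarian, blood and lineage factors, and up to 2 called genes per partner list and contrast. FOXL2, FOXO3 and KLF9 were not analysed here, and none of 6 T cell markers was measured under a single symbol. The fit was tested on simulated data. Same-numbered replicates did not deviate together (correlations from -0.13 to 0.171), so no block was used. Alternatives were 16 added before log2, dim probe sets left out, quantile normalization, another variance model, array weights, the 3' minus 5' index as covariate, the mean of a gene's probe sets, a replicate block, only the 2 groups compared, and each array left out.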

Additional observations from a re-analysis of the deposited data

Results flagged for a closer look

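In 20 of 250 groups of arrays tested (8%), 1 follicle stood far from the others of its group, by the size of its gap to the nearest one relative to the group's range; chance gives about 1 in 20. All values are log2 intensities.

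Among genes with a call, FOXO4 was low in unruptured replicate 1 at 7.918 (others 8.458 to 8.538), FOXN3 in 12 h replicate 4 at 8.197 (others 8.808 to 8.879) and HOXC6 in 12 h replicate 3 at 7.830 (others 8.142 to 8.184). GATA4 was low in unruptured replicate 3 at 7.173 (others 7.953 to 8.096), and KLF8 in unruptured replicate 2 at 6.308 (others 6.718 to 6.771). KLF4 was low in 0 h replicate 3 at 7.214 (others 7.682 to 7.872). KLF15 was low in 0 h replicate 2 at 8.056 (others 8.624 to 8.813) and high in 24 h replicate 2 at 9.168 (others 8.896 to 8.925).

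Of the genes without a call, GATA6 was high in unruptured replicate 2 at 11.002 (others 10.208 to 10.324) and KLF6 in 12 h replicate 3 at 10.607 (others 9.747 to 9.814). SOX4 was low in ruptured replicate 6 at 10.781 (others 11.336 to 11.426), and GATA2 in 12 h replicate 4 at 5.072 (others 5.986 to 6.146). Among dim genes, FOXJ1 was high in unruptured replicate 1 at 6.278 (others 3.768 to 4.058) and FOXP3 in 12 h replicate 1 at 4.924 (others 1.356 to 1.778). SOX18 was low in 0 h replicate 3 at 3.353 (others 4.362 to 4.963). TBX21 was low in 12 h replicate 3 at 2.212 (others 3.684 to 3.897) and high in 24 h replicate 2 at 4.165 (others 3.246 to 3.371).

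Among partner genes, PBX3 was low in unruptured replicate 3 at 8.391 (others 8.610 to 8.643), PKNOX2 in ruptured replicate 8 at 7.011 (others 7.277 to 7.317), and PIK3CA was high in 0 h replicate 1 at 8.273 (others 7.887 to 8.009).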

How the results depend on the processing

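Counts of called members stayed within 1.5 times of the reported ones with 16 added before log2, dim probe sets left out, quantile normalization, an intensity trend with robust eBayes, array weights, the 3' minus 5' index as covariate and the mean of all probe sets of a gene. Under the last of these the members were partly others: 7 of the 10 called in ruptured against unruptured follicles, 10 of the 12 in ruptured against 0 h follicles and 15 of the 17 in the F test were among those reported. With the replicate number as a block, for which the numbers gave no sign of pairing, the F test called 13 members. Under this block 4 were called at 12 h against 0 h and 10 at 24 h against 12 h. In ruptured follicles it called 0 against unruptured and 1 against 0 h follicles. Ruptured and unruptured follicles share 0 replicate numbers, and ruptured and 0 h follicles share 2. The block is therefore largely bound up with rupture, and its counts for ruptured follicles cannot show whether those calls are stable. With only the 2 groups compared in the fit the counts were 6 at 12 h against 0 h, 1 at 24 h against 12 h, 2 in ruptured against unruptured and 8 in ruptured against 0 h follicles; such fits hold fewer arrays. Leaving out 1 array at a time gave 18 to 23 members in the F test, 6 to 8 at 12 h against 0 h, 9 to 13 at 24 h against 12 h, 0 in unruptured 36 h against 24 h, 9 to 14 in ruptured against unruptured and 11 to 16 in ruptured against 0 h follicles. The count at 12 h was 6 on dropping one of 0 h replicates 3 and 4 or of 12 h replicates 1 and 2, and that at 24 h was 9 on dropping one of 12 h replicates 1 and 4 or of 24 h replicates 2 and 3. Over the mean of all probe sets KLF12 changed by 0.013 in ruptured against unruptured follicles and PBX3 by -1.221 at 24 h against 12 h, both of opposite sign to the chosen set and without a call; the cause was not tested. For the named genes, leaving out an array ended 251 of 1374 calls, and a fit of only the 2 groups compared ended 48 of 74. The replicate block ended 67 of 106, with the limit on ruptured follicles given above. FOXO4, KLF11, KLF15 at rupture and KLF4 at 12 h kept their calls without any single array. Other genes did so too, among them FOXK2, SOX30 and HOXD4 at 24 h against 12 h. The calls of FOXO4 at rupture and of KLF11 at 24 h against 12 h and at rupture ended with only the 2 groups compared in the fit. Probe sets under the array medians carry little signal over background, which limits what can be said of the 63 dim members.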
